A study of Sus scrofa with 3 samples.

Results

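The liver methylome of Large White pig (LW), a European breed, stood apart from those of Enshi black pig (ES), a Chinese breed, and of Chinese wild boar (WB) in 1154 regions of chromosomes 1 to 18. Of these regions, 803 were lower and 351 were higher in LW than in both other breeds. Among all listed autosomal regions, LW was lower than ES in 45.6% and lower than WB in 51.0%. The members were chosen by the deposited levels and calls themselves. They are the listed autosomal regions of the comparison of ES with LW (7325 regions) that share at least 1 bp with a listed region of LW against WB, differ in the same direction there, and overlap no listed region between ES and WB. The levels described below are therefore a description of regions selected for their pattern, and no test between breeds was made. The 3 comparisons together list 25044 regions in all, scaffolds and sex chromosomes included.

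Genomic DNA came from the liver of male pigs at postnatal day 90, with no treatment named, and each breed has 1 methylome by bisulfite sequencing. Bisulfite converts cytosine without a methyl group, which then reads as thymine, and the level of a region is the percentage of methylated cytosine, here the authors' mean over its CG sites. There is no replicate check, and breed, animal and library cannot be told apart. The growth protocol gives 3 male pigs, and the sources used here do not say whether a methylome is 1 animal or a pool. Positions are those of the pig assembly Sscrofa10.2. Read depth is unknown, because the files give fractions and no counts.

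In mammalian cells most cytosines followed by guanine carry a methyl group, which DNA methyltransferases copy onto the new strand after replication. CG-rich promoters of active genes and many enhancers are kept free of it, and such elements in a differentiated tissue like the liver mark which genes its cells can use. An intermediate level of a site in bulk tissue can mean that some DNA molecules are methylated there and others are not. Examples are a mixture of cell types, imprinted genes, or copies from both parents that differ. Bulk bisulfite data cannot separate these cases. The level of a region is a mean over its CG sites, so sites of unlike levels can also give an intermediate one. Large White pig is an old British white breed kept for growth and lean meat, and European and Chinese pigs descend from separately domesticated wild boars.

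Regions in which LW was the lower breed outnumbered those in which it was the higher one. They made up 69.6% of the members, with a 95% Wilson interval of 66.9% to 72.2% that covers counting error only and treats neighbouring regions as independent. The shares of 45.6% and 51.0% given above for all listed regions are lower, but the rule used both of these contrasts, so the difference from this background is a property of the chosen regions and was not tested. The same rule with another breed in the place of LW gave 1963 regions for ES, of which 71.5% were lower in that breed (69.5% to 73.5%). It gave 1367 regions for WB, of which 62.5% were lower in it (59.9% to 65.1%). A majority of regions lower in the breed that stands apart is thus not particular to LW. LW has the fewest regions of the 3 breeds. The lists that feed the rule also differ in size. ES with LW had 7325 autosomal regions, ES with WB 7829 and LW with WB 5434. The part of list size in this order was not tested.

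The median distance of LW from ES was close to that from WB in both directions. Among the lower regions, the median distance was 36.2 percentage points from ES (range 15.2 to 87.4) and 36.9 from WB (range 1.16 to 87.2). Among the higher regions it was 31.4 points from ES (5.64 to 85.8) and 33.3 from WB (1.5 to 83.8). Both distances therefore ran wider in the lower regions by their medians.

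**Figure D1:**
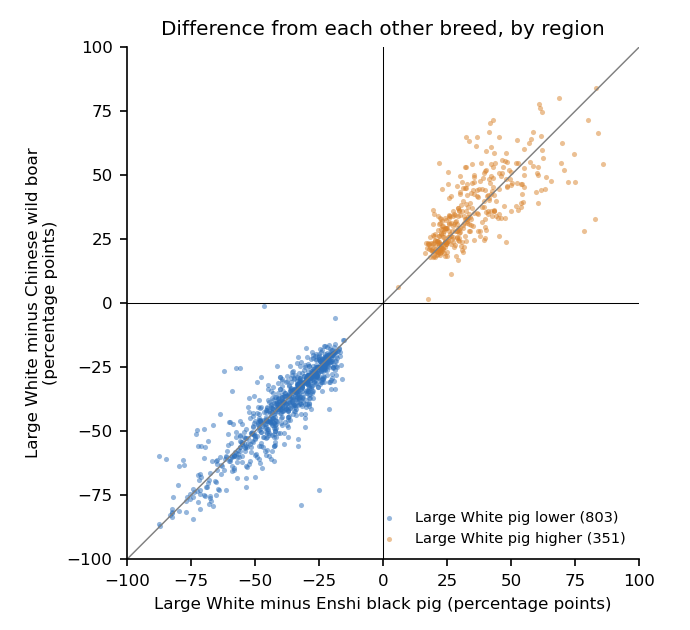
Difference of LW from ES (x axis) and from WB (y axis), in percentage points of CG methylation, with 1 point per region; the grey diagonal marks equal differences. The 803 lower regions (blue) and 351 higher regions (orange) lie in opposite corners as the rule requires, and some points lie far from the diagonal.

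The lower regions were mostly places that were highly methylated in the other breeds and intermediate in LW. The median level was 46.2% in LW (from 1.23% to 80.7%), 88.1% in ES and 89.0% in WB. Levels of LW and ES are those of the member, and levels of WB are those of the overlapping region listed against WB. Only 398 of all 1154 members (34.5%) had the same bounds in both lists, so the classes below often join unlike intervals. With levels up to 25% taken as low and from 75% as high, 522 of the 803 lower regions (65.0%) were high in both other breeds and in between in LW. In another 55 (6.85%), both other breeds were high and LW was low. In 60 regions (7.47%) LW was low while the others were in between, and in 79 (9.84%) all breeds were in between. A level of at most 10% in LW was found in 17 regions (2.12%).

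The higher regions had the mirror pattern, with LW as the more methylated breed. Their median level was 86.2% in LW (from 27.9% to 99.3%), 46.6% in ES and 45.0% in WB. The levels of WB are again those of the overlapping region listed against WB, which often has other bounds. LW was high and both others in between in 214 of the 351 (61.0%). Only 7 higher regions (1.99%) were high in LW and low in both other breeds. In 131 regions (37.3%) LW was above 90%, whereas neither other breed was above 90% in any higher region. The rule asks that LW be the higher breed, so this contrast was largely set by it. In both directions, an intermediate level set against a high one was thus the most frequent contrast, and a low level against a high one was rare.

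**Figure D2:**
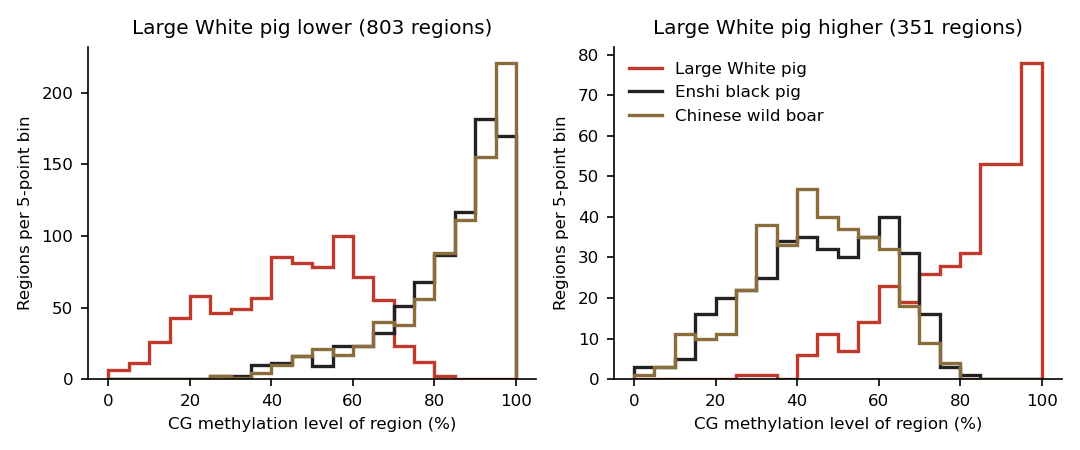
Number of regions (y axis) by CG methylation level in bins of 5 percentage points (x axis) for each breed, in the 803 regions lower in LW (left) and the 351 higher (right). On the left LW spreads around its median of 46.2% while both other breeds pile up near full methylation; on the right LW piles up there and the others spread around 46.6% and 45.0%. Levels of WB are those of the overlapping region listed against WB, which often has other bounds than the member.

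In the lower regions with the widest differences and at least 10 CG sites in both lists, LW stood below 25% and both other breeds at 87.3% or more. The first of them lies on chromosome 7 from 31348142 to 31348349 with 20 CG sites. Its level was 16.9% in LW, 99.5% in ES and 96.7% in WB. On chromosome 14, 13 CG sites from 95324152 to 95324407 had 18.2% in LW, 97.9% in ES and 99.6% in WB. Both regions had the same bounds in both lists, so the levels of all breeds refer to the same sites. A region on chromosome 15 from 62172521 to 62172742 (11 CG sites) had 17.9% in LW, 94.9% in ES and 99.6% in WB. On chromosome 3, from 139803231 to 139803389 (11 CG sites), LW had 19.7%, ES 96.2% and WB 95.5%. These 4 regions span 159 bp to 256 bp.

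Further along the same order, chromosome 1 held a pair of such regions far from each other. From 277650879 to 277651098, 23 CG sites had 20.3% in LW, 90.0% in ES and 95.8% in WB. From 301374114 to 301374510, 11 CG sites had 19% in LW and 90.7% in ES, and the overlapping 268 bp of the other list had 14.3% in LW and 87.3% in WB. Both regions were thus low in LW alone. The list of LW against WB reached beyond the member on chromosome 14 from 121895115 to 121895239. There the member had 15 CG sites at 24.7% in LW and 96.2% in ES, while the region of 406 bp and 39 CG sites in the other list had 24.8% in LW and 99.2% in WB. The last of the 8, on chromosome 6 from 90174554 to 90174866, had 22.6% in LW, 91.0% in ES and 92.7% in WB.

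Single CG sites show the same blocks. Across the 20 sites of the region on chromosome 7, LW ran from 16.4% to 26.9%, ES from 98.0% to 99.5%, and WB stood at 96.7%. In the region on chromosome 15 all 11 sites carried one and the same level in each breed, which separate counts at each site would hardly give. The deposited site levels thus appear to be smoothed over neighbours, and the sites of a region are not separate measurements. Over all members, 1964 sites were in both lists that involve LW, in 372 members, and 1963 of them differed in the direction of their member. The rule chose members by these same contrasts, so that direction and the site medians below were largely set by it. The 1964 sites are 57.1% of the 3439 autosomal sites found in both lists. At the 1527 such sites in lower regions, the median was 31.2% in LW, 91.4% in ES and 92.9% in WB. At the 437 in higher regions it was 94.9%, 32.8% and 35.0%, in the same order of breeds.

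**Figure D3:**
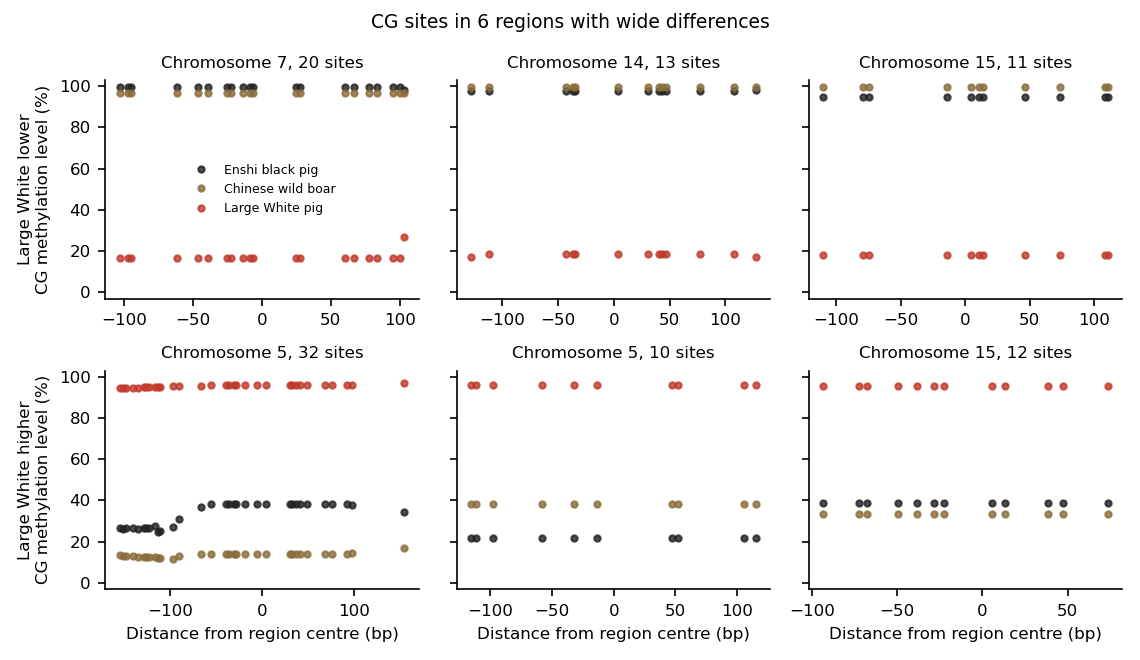
CG methylation level (y axis, %) of every site in both lists that involve LW, by distance from the centre of the region (x axis, bp), in the 3 lower (top) and 3 higher (bottom) regions with the widest smaller difference. LW (red) lies below 27% at each site on top and above 94% at each site at the bottom, and neighbouring sites often carry the same value.

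The lower regions with the most CG sites had narrower differences and began from various levels. On chromosome 11 from 3040708 to 3041746, 91 CG sites had 52.2% in LW and 89.0% in ES, and the region of 97 CG sites in the other list had 53.5% in LW and 90.9% in WB. This is a long stretch of 1039 bp at an intermediate level in LW alone. The region with the largest number, 106 CG sites on chromosome 4 (83434183 to 83434960), had 51.9% in LW and 76.9% in ES. Against WB, 12 CG sites within it were listed, at 52.4% and 72.5%. Another on chromosome 4, from 139077057 to 139077566 with 84 CG sites, had 29.3% in LW and 53.0% in ES, and 46 of its CG sites had 28.2% in LW and 50.7% in WB. The fourth differs in kind. On chromosome 6 from 54581197 to 54581809, 78 CG sites at 12.7 per 100 bp stood at 3.96% in LW against 27.2% in ES. The region of 24 CG sites listed against WB, which shares 252 bp with it, had 3.97% in LW and 29.5% in WB. Both intervals were thus close to unmethylated in LW.

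The regions with the lowest levels of LW stood beside intermediate or high levels in the other breeds. On chromosome 1 from 247208370 to 247208440 (4 CG sites) LW had 1.23%, ES 45.0% and WB 48.1%. On chromosome 13 from 5771548 to 5771766 (5 CG sites) the levels were 2.03%, 59.4% and 52.4%. The next lowest, on chromosome 10 from 48030958 to 48031116 (5 CG sites), had 2.64% in LW, 85.9% in ES and 85.3% in WB. Without the limit on CG sites, the lower region with the widest smaller difference was on chromosome 14 from 136601806 to 136601932, where 6 CG sites had 12.4% in LW and 99.6% in both other breeds. With 4 to 6 sites, such values rest on few cytosines.

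The longest lower regions show the limit of joining 2 lists. On chromosome 9 from 2785698 to 2793522, only 11 CG sites were counted over 7825 bp, with 59.0% in LW and 91.1% in ES. The listed region against WB covers 101 bp of it, with 4 CG sites at 17.2% in LW and 96.2% in WB. The level of LW thus differs between the long and the short interval. On chromosome 13 from 12246951 to 12250787 (10 CG sites), LW had 21.4% and ES 89.4%, and 9 of the sites, in 266 bp, gave 17.9% in LW and 96.4% in WB. Nearly all CG sites of that region therefore lie at its start. The other 2 of the 4 longest, on chromosome 13 from 153365744 to 153369847 and on chromosome 14 from 112471799 to 112475451, had 42.7% and 22.8% in LW, with 83.9% and 95% in ES.

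Among the higher regions, the 8 with the widest differences and at least 10 CG sites in both lists had 85.8% or more in LW, and the other breeds there ran from 13.8% to 48.4%. On chromosome 5 from 3292493 to 3292803, 32 CG sites had 95.5% in LW and 33.4% in ES. The 38 CG sites of the other list had 88.3% in LW and 13.8% in WB. The site levels of the other breeds lay apart here, from 24.6% to 38.3% in ES and from 11.7% to 16.8% in WB, without an overlapping listed region between them. A second region on chromosome 5, from 23177287 to 23177518 with 10 CG sites, had 96.2% in LW, 21.7% in ES and 38.1% in WB. On chromosome 17 from 13729862 to 13730242, 44 CG sites had 95.9% in LW, 26.5% in ES and 41.4% in WB. That is the region with the most CG sites among the 8 of its kind, and its site levels ran from 94.9% to 96.3% in LW, 25.2% to 27.8% in ES and 37.1% to 43.1% in WB.

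The other higher regions of this order had the same form. On chromosome 15 from 147402768 to 147402955 (14 CG sites), LW had 95.7% and ES 38.7%, and 12 of the sites had 96.1% in LW and 33.6% in WB. On chromosome 7 from 22547529 to 22547812 (26 CG sites) the levels were 96.4%, 32.8% and 47.2%. LW stood near full methylation in both. On chromosome 8 from 31069211 to 31069569 (12 CG sites), LW was less complete, at 85.8%, with 25.4% in ES, and 10 of the sites had 85.3% in LW and 32.3% in WB. On chromosome 13 from 200095027 to 200095301 it had 97.5%, with 36.9% in ES, and 10 of the 12 sites had 97.1% in LW and 47.1% in WB. On chromosome 5 from 14714839 to 14714972, 11 CG sites had 95.9%, 30.4% and 48.4%. A low-to-full contrast was found with few sites, on chromosome 3 from 67243623 to 67243693, where 4 CG sites had 99.1% in LW, 16.0% in ES and 15.3% in WB.

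In the 4 higher regions with the most CG sites, LW stood above the other breeds by 19.5 to 34.1 points over stretches of 452 bp to 848 bp. On chromosome 9 from 146307035 to 146307649, 72 CG sites had 67.6% in LW, 36.2% in ES and 36.5% in WB, with the same bounds in both lists. The other breeds differed by less than 1 point there. On chromosome 12 from 55501536 to 55502079 (72 CG sites) LW had 55.3% and ES 21.1%, and the shifted region of 53 CG sites in the other list (55501628 to 55502164) had 56.7% in LW and 26.4% in WB. The region with the largest number, 95 CG sites on chromosome 1 from 310485322 to 310486169, had 95.6% in LW and 72.0% in ES, and 39 of its CG sites, in 335 bp, had 96.0% in LW and 76.5% in WB. On chromosome 3 from 41023616 to 41024067, 70 CG sites had 80.4% in LW and 49.2% in ES, and the first 177 bp, with 39 CG sites, had 78.1% in LW and 58.0% in WB. In the regions on chromosomes 12, 1 and 3, the values of WB thus cover only part of the member or a shifted interval. The 4 longest higher regions spanned 1133 bp to 1557 bp with 4 to 39 CG sites. The longest, on chromosome 3 from 55196284 to 55197840, had 60.5% in LW and 37.7% in ES, and the 67 bp listed against WB had 57.5% and 36.2%. The highest level of LW was on chromosome 12 from 24895141 to 24895220, where 5 CG sites had 99.3% in LW and 63.7% in ES. The 248 bp listed against WB, with 6 CG sites, had 96.0% in LW and 53.4% in WB.

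ES and WB were closer to each other inside the lower regions than inside the higher ones. This can be read only from the 398 members (34.5%) whose bounds were the same in both lists. In 325 lower members, the level of ES differed from that of WB by a median of 2.32 points, and by less than 5 points in 243 (74.8%). In 73 higher members the median was 7.46 points, and 28 (38.4%) lay below 5 points. ES was the higher of the pair in 132 of the 325 and 37 of the 73. Over all lower regions the median level was 88.1% in ES and 89.0% in WB, near the upper end of the scale. Over all higher regions it was 46.6% and 45.0%. The part of this position on the scale in the narrower difference was not tested. The rule bars a listed region between these breeds but sets no limit on their difference. The widest one was 31.5 points, on chromosome 2 from 35477440 to 35477668, where 4 CG sites had 3.50% in ES, 35.0% in WB and 89.3% in LW.

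In the members with the same bounds, LW itself had nearly one level in both lists. Both values come from the same library over the same interval, so this is no independent check. The median difference was 0.0105 points, and 9 of 398 exceeded 1 point. The widest was 25.6 points, on chromosome 8 from 76688378 to 76688504, where LW had 11.9% in the list with ES (99.3%) and 37.5% in that with WB (97.3%). The direction was the same in both. Where bounds differed, LW could differ more, as on chromosome 9 from 2785698 to 2793522, with 59.0% in the list with ES and 17.2% in that with WB.

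The members were somewhat longer and richer in CG sites than the listed regions they came from. Their median length was 200.0 bp with 10 CG sites and 6.39 CG sites per 100 bp. All listed autosomal regions between ES and LW had 177 bp, 8 CG sites and 5.48 per 100 bp. Since the rule asks for an overlap, which a long region meets more readily, size is not independent of it. Regions that stood apart in ES had 209 bp, 10 CG sites and 5.80 per 100 bp, and those of WB 208 bp, 11 CG sites and 6.78 per 100 bp. By size the members of LW thus lay close to those of the other breeds. Lower and higher regions were also alike, at 197 bp and 210.0 bp, and 10 and 11 CG sites.

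Differences were narrower where CG sites were many. With 4 to 9 CG sites, the smaller of both differences had a median of 39.4 points in the lower and 36.5 in the higher regions (543 members). With 40 or more it was 21.9 and 22.1 points (78 members). By density, it went from 45.9 and 45.8 points below 2 CG sites per 100 bp to 23.1 and 21.4 points at 10 or more. The share of lower regions was smaller at the upper end. LW was lower in 71.8% of members with 4 to 9 CG sites (67.9% to 75.4%) and in 56.4% of those with 40 or more (44 of 78; 45.4% to 66.9%). Among all listed regions the shares were 45.6% and 52.6% in the same classes. Members took 12.3% of listed regions of 4 to 9 CG sites and 26.6% of those with 40 or more. The listing thresholds of the authors, which are unknown here, and their part in this relation were not tested.

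**Figure D4:**
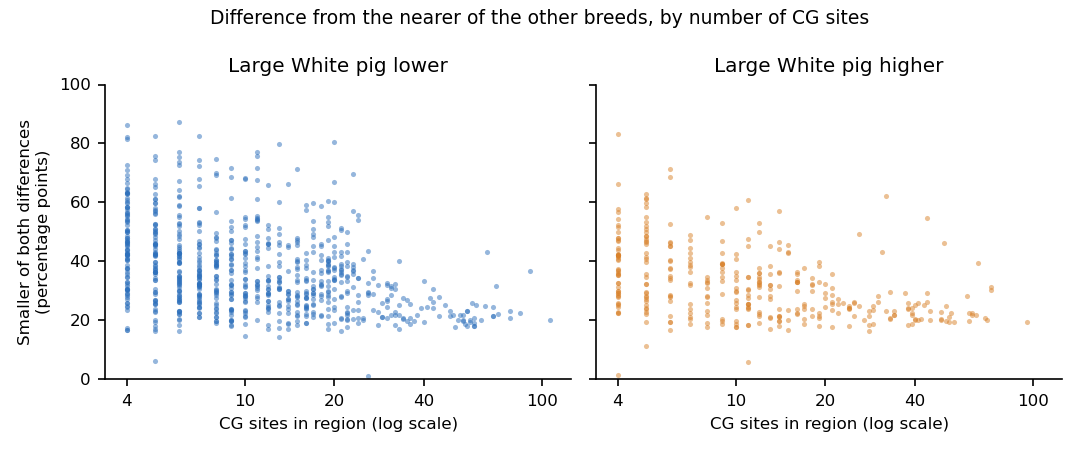
Smaller of the differences of LW from both other breeds (y axis, percentage points) by number of CG sites (x axis, log scale), with 1 point per region, for the 803 lower (left) and 351 higher regions (right). Values above 60 points are found only up to 23 CG sites on the left and 32 on the right, and regions of 40 or more CG sites mostly lie near 22 points in both panels.

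Members lay on every autosome. Chromosome 12 had the most per Mb up to the last listed position, at 1.01, with 34 lower and 30 higher regions. Chromosome 11 followed with 0.730 and chromosome 7 with 0.639, and chromosome 13 had the fewest at 0.270. The median of the 18 autosomes was 0.478. The listed regions themselves also varied, and members took 10.8% of them on chromosome 10 to 19.6% on chromosome 11, with 19.5% on chromosome 12. The share of lower regions ran from 53.1% on chromosome 12 (41.1% to 64.8%) to 83.6% on chromosome 4 (72.9% to 90.6%), where 56 members were lower and 11 higher. Lower regions were the majority on all 18 autosomes.

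**Figure D5:**
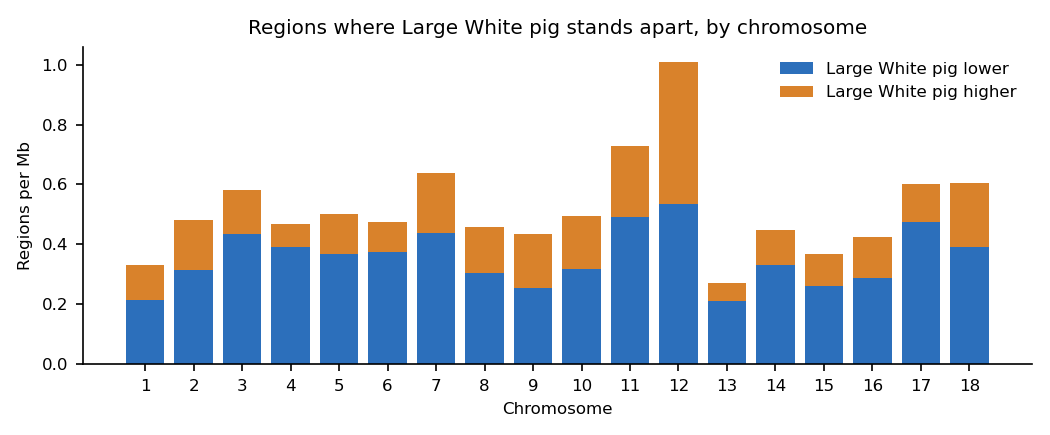
Regions where LW stands apart per Mb of chromosome up to the last listed position (y axis) on chromosomes 1 to 18 (x axis), split into lower (blue) and higher (orange) regions. Chromosome 12 reaches 1.01 regions per Mb with nearly as many higher as lower regions, and chromosome 13 is lowest at 0.270.

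Most members stood alone. With gaps of up to 10 kb, 64 of the 803 lower regions (7.97%) formed 31 runs and 20 of the 351 higher ones (5.70%) formed 10 runs. Some runs hold pieces of 1 region of the list of LW against WB, since the 1154 members were joined to 1141 such regions. In the next run, the members from 53616329 and from 53616830 share the region from 53616656 to 53616970. A run of 3 lower regions on chromosome 3 spanned 778 bp from 53616329 to 53617106, with 60.8% to 65.7% in LW, 90.5% to 94.4% in ES and, over the regions listed against it, at most 97.2% in WB. The other run of 3, on chromosome 1 from 140415722 to 140422052, had 18.4% to 73.3% in LW, so its members were not alike. The longest lower run covered 10644 bp with 2 regions on chromosome 11 (71169103 to 71179746). The longest higher run, of 8270 bp on chromosome 2 from 158279812 to 158288081, had 73.9% to 94.0% in LW and 52.5% to 68.5% in ES, and 52.1% to 60.7% in WB over the regions listed against it.

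In 9 pairs, a lower and a higher region lay within 10 kb of each other. The closest pair was on chromosome 7, where 10 CG sites from 22809019 to 22809240 were higher in LW (48.1%) than in ES (14.6%), and the overlapping 13 CG sites from 22808895 to 22809219 had 72.3% in LW and 41.4% in WB. A gap of 216 bp separated the member from a lower one of 8 CG sites (22809457 to 22809611) with 15.7% in LW and 67.9% in ES, of which 5 sites had 16.1% in LW and 58.8% in WB. On chromosome 5, the region from 23177287 described above lay 6401 bp from a lower region of 11 CG sites (23170704 to 23170885) at 29.3% in LW, 94.1% in ES and 90.4% in WB. Opposite differences therefore occurred side by side in the same library.

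The gene models used here are 2024 loci of chromosome 1 from the first part of the study's long-read annotation, and ACTA1 on chromosome 14. Only a few had a member in them or within 2 kb. Among the 104 members on chromosome 1, 5 lay in or within 2 kb of such a locus, 3 lower and 2 higher. Of these 5, 1 lay in an intron and 0 in an exon. Members near genes outside these models could not be counted, and the share of all listed regions that lie as near was not computed. The counts thus do not show whether members lie near genes often or rarely. PPP1R14C (ENSSSCG00000004094, minus strand), whose product inhibits a protein phosphatase, had a higher region of 34 CG sites beginning 436 bp upstream of it (18079421 to 18079713). Its level was 63.0% in LW and 41.1% in ES, and the longer region of 48 CG sites listed against WB (18079348 to 18079793) had 62.3% in LW and 36.3% in WB. ACTA1 encodes the actin of skeletal muscle, and a higher region of 33 CG sites (65237812 to 65238135) covered 5 of its 137 splice positions used here, the last of which is 65237851. LW had 65.5% there and ES 42.5%. Over the 10 CG sites listed against WB (65237848 to 65237931), LW had 67.3% and WB 47.0%. At ACTA1 and upstream of PPP1R14C, all breeds thus had intermediate levels, with LW the highest.

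The remaining loci have no symbol. In an intron of locus 1.2486, 12 CG sites from 63001198 to 63001313 had 68.4% in LW, 92.3% in ES and 93.1% in WB. Upstream of locus 1.170, by 1621 bp, 7 CG sites (23400786 to 23400886) had 53.6% in LW and 93.0% in ES. The region of 13 CG sites listed against WB (23400683 to 23400802) shares 17 bp with it and had 53.0% in LW and 85.4% in WB. Downstream of locus 1.1153 a lower region had 55.3% in LW, and downstream of locus 1.1227 a higher region had 97.1%. None of the 72 genes of liver metabolism, growth, imprinting, pig breed loci and DNA methylation on the lists used here is among these gene models, so their methylation is not analysed here.

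The borders of the rule can be read from the regions on both sides of it. The least overlap kept was 1 bp, in 3 members. One of them, on chromosome 15 from 131070661 to 131070781, had 98.3% in LW and 64.6% in ES, and the neighbouring region against WB had 98.3% and 35.2%. On the other side, 89 regions that overlapped the list of LW against WB were left out because they also overlapped one between the other breeds. In 30 of these LW was lower than both, and in 25 higher than both. The nearest case, on chromosome 18 from 2851014 to 2851404, had 39.3% in LW and 72.7% in ES, with 41.7% in LW and 76.4% in WB in the other list, and shared 1 bp with a region listed between ES (41.5%) and WB (68.6%). Among the members, the closest to such a region lay 16 bp from it, on chromosome 6 from 4064262 to 4064692, with 45.5% in LW and 73.4% in ES, and the region in the other list that covers it had 47.6% in LW and 82.0% in WB.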

How the data were processed

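Whole-genome bisulfite libraries of liver from 3 breeds were aligned by the authors, per the submitters' processing notes with Bismark 0.15.0 to Sscrofa10.2. The authors deposited lists of differing CG sites and regions for 3 breed comparisons, with the level of both breeds as a fraction per site or region. The sources used here name neither the calling tool nor its thresholds. The lists also hold the authors' differences, statistics, p-values and false discovery rates, which were not used. Columns are numbered, so each column's breed rests on the sequence of breed codes in its table's name. Fractions were multiplied to percent, and overlaps, counts and medians taken in pandas 2.3.3 and numpy 2.4.6, intervals in scipy 1.17.1 (Python 3.11.15) and figures in matplotlib 3.10.9. Each member was joined to the region of the other list with which it shares most bases, and differences were computed from the levels. The selection of members by the rule was tested on simulated tables with planted regions. Positions are those of the files, on Sscrofa10.2. No genome of that build was used, so no sequence is printed, and gene models came from the parts of the study's supplementary tables used here, with 53 of 2024 loci having a symbol. Regions named were, in each direction, the 8 with the widest smaller difference among those of at least 10 CG sites, the 4 with the most CG sites, the 4 longest, those at the borders of the rule, the longest runs and those near genes; others were chosen after their values were seen. The members, lists and alternatives were chosen with earlier results of these data known. No expression was measured in these libraries, so the labelled tissue was not checked by markers.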

Additional observations from a re-analysis of the deposited data

Results flagged for a closer look

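The same rule was applied outside chromosomes 1 to 18, to listed regions that the report does not use. On chromosome X, 144 regions stood apart in LW, 61 lower and 83 higher (42.4% lower). They are 20.5% of the 704 listed there between ES and LW, beside 15.8% of the 7325 on the autosomes. On unplaced scaffolds and chromosome Y, 142 of 852 listed regions (16.7%) did, of which 67.6% were lower. The share lower in LW over all listed regions of these parts was not computed, so the shares lower among members cannot be called high or low. The median level of LW was 42.0% in the lower and 85.9% in the higher regions of X. The difference in direction between X and the autosomes was not tested.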

How the results depend on the processing

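Each breed has 1 methylome and no depth is given, so no replicate could be left out. No paired analysis was possible because there is only 1 methylome of every breed. Of 47 values recomputed for 11 results, 30 stayed within 1.5 times a count or within the 95% interval of a share or median, and 17 moved. An overlap of at least 50% of the shorter region kept 1105 of the 1154 members, and no listed region between the other breeds within 1 kb kept 1089. Counting the regions of LW against WB instead gave 1151, which overlapped 1133 members. A difference of at least 40 points in both comparisons left 286 lower and 81 higher regions, 77.9% of them lower, with medians of 33.6% and 90.0% in LW, 6 CG sites, 4.17 CG sites per 100 bp, 0.166 regions per Mb and 1 member with a listed site between the other breeds. At least 10 CG sites in both lists left 335 lower and 161 higher regions, 67.5% of them lower, with a median of 79.0% in LW in the higher ones, 253 bp, 18.5 CG sites, 8.26 per 100 bp and 1 member with such a site. Gaps of up to 50 kb gave 68 runs in place of 41. Fewer regions follow from each stricter limit. A limit on CG sites raises their median by itself, a limit on the difference selects for outlying levels of LW, and a wider gap joins more members into runs. For the other values that moved, the cause was not tested.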

Other observations

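Inside the members, sites listed between ES and WB were almost absent. The rule bars listed regions between these breeds, so this is no independent measure. There were 7 such sites, in 3 lower members, of 26684 on the autosomes, whereas 3365 sites listed between ES and LW and 3352 listed between LW and WB fell within members. All 3 members are long for their CG sites. In the region on chromosome 9 from 2785698 to 2793522, 3 sites from 2790254 to 2790345 had 13.6% in ES and 96.1% in WB, although the level of ES over the whole region was 91.1%. On chromosome 1 from 112777747 to 112778485, 2 sites had 76.6% in ES and 12.2% in WB, and on chromosome 17 from 35168164 to 35169177, 2 sites had 33.7% and 92.6%.

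A region's mean can hide opposite parts. On chromosome 9 from 7721353 to 7722293, LW was counted as higher, at 87.1% against 81.5% in ES and at 82.5% against 76.2% in WB, yet its last site (7722293) had 54.9% in LW, 95.6% in ES and 95.3% in WB. On chromosome 1 from 18163545 to 18163997, LW had 30.9% and ES 77.4%, while the longer region of 997 bp in the other list had 61.8% in LW and 63.0% in WB, the smallest difference among all members. In 4 members the smaller difference was below 10 points.

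Only 2 regions met the overlaps of the rule with opposite directions. On chromosome 1 from 308095594 to 308095881, LW had 51.0% and ES 60.2%, and 93.6% against 63.3% in WB in a region that shares 8 bp with it. On chromosome 3 from 39139121 to 39139186 it had 58.0% and ES 40.1%, while the region of 75 CG sites in the other list that covers it had 62.7% in LW and 86.5% in WB.

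In bins of 10 Mb, a division made after the data were seen, the most members lay on chromosome 11 from 70 to 80 Mb, with 14 lower and 7 higher. They are 28.4% of the 74 regions listed there between ES and LW, beside 15.8% over all autosomes. Bins with fewer listed regions reached higher shares, as on chromosome 8 from 60 to 70 Mb with 3 of 7 (42.9%). The median over 253 bins was 4 members, and 15 bins held 0. Regions that stood apart in ES lay within 10 kb of 46 members (3.99%), and those of WB within 10 kb of 67 (5.81%). The same share over all listed regions was not computed, so these counts cannot be called many or few. The sets also differ in size, with 1963 regions for ES and 1367 for WB.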
